A study of Mus musculus with 24 samples.

Results

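The 4 Id genes (Id1, Id2, Id3 and Id4) and 6 Smad genes of the bone morphogenetic protein pathway (Smad1, Smad4, Smad5, Smad6, Smad7 and Smad9) were read from the expression table of the mouse aorta by gene name, 10 of the 32561 genes listed. All 10 were in the table. The rule goes by gene name and uses no measured value.

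BMP ligands bind paired receptors at the cell surface, which phosphorylate the receptor-regulated Smads (Smad1, Smad5 and Smad9). These join the common partner Smad4 and move to the nucleus, where the Id genes are among the most direct targets. Id proteins are helix-loop-helix proteins without a DNA-binding region that pair with E proteins and keep them from DNA, while the inhibitory Smads, Smad6 and Smad7, are themselves induced by the pathway and damp it. In the vessel wall BMP signalling is known for its part in endothelial quiescence and in medial calcification, which accompanies kidney failure.

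The study asked how renal failure, sex and a changed Bmp2 gene alter RNA in the aorta. All mice were congenic on 129S1/SvlmJ and were 44 to 53 days old, and each of the 24 aortas gave 1 library, 4 in each of 6 groups. The Kl/Kl groups were homozygous for a recessive Klotho mutation and are labelled as having renal failure. Their controls, with healthy kidneys, carried 1 copy of the Klotho mutation, except 1 control mouse that was homozygous wild type. The 6 groups were Kl/Kl and control males with both Bmp2 copies carrying the ∆UCS mutation, Kl/Kl and control males with unmutated Bmp2 (Bmp2+/+), and Kl/Kl and control Bmp2+/+ females. The ∆UCS allele was studied here in males alone, and no label says in which aortic cells it acts. Values are from whole aorta, in which fewer cells of a type and less RNA per cell cannot be told apart.

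Each library held an estimated 20589000 to 61088000 reads assigned to genes. Levels are given as scaled TPM, the deposited TPM (a read abundance per gene length and library) after median-of-ratios scaling, because mitochondrial genes took 40.2% to 61.2% of a library's TPM. Sex-linked RNA (Xist and Ddx3y) did not match the sex on the label in 2 libraries: the library labelled Bmp2+/+ Kl/Kl male replicate 1 and the library labelled Bmp2+/+ Kl/Kl female replicate 2. Spp1, the osteopontin gene, was at 0.467 scaled TPM in the first and 0.356 in the second, against 42.2 to 260.1 in the other 10 Kl/Kl libraries and 0.235 to 6.08 in the 12 controls. Results are given without these 2 libraries (22 libraries) and with them. Smooth muscle markers were present in every group, 8 of 8 in the table, with sums between 99.4 and 660.5 scaled TPM. Bmp2 itself had 72 to 479 estimated reads in a library and Kl 0 to 30, so Kl does not check the Klotho labels at this depth.

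Upstream sequences are shown for Id2, the gene called in females, for Id3, which was called in no comparison but whose Kl/Kl and control Bmp2+/+ males did not overlap, and for Id4, a family member whose Kl/Kl and control groups overlapped. RefSeq's promoter table for GRCm38.p6 held 7 of the 10 genes. The 250 bases before the annotated start are printed for Id2, Id3 and Id4, each on the strand of its gene, at chr12:25096093-25096342 (minus strand), chr4:136143572-136143821 (plus strand) and chr13:48260866-48261115 (plus strand). The first transcribed bases of Id2 were matched to a GENCODE transcript of that gene. Those of Id3, Id4 and Smad1 were not, so their starts are less certain. Capitals mark GGCGCC, the core that BMP Smads are known to bind, and CAGAC on either strand, a Smad-binding element.
Id2: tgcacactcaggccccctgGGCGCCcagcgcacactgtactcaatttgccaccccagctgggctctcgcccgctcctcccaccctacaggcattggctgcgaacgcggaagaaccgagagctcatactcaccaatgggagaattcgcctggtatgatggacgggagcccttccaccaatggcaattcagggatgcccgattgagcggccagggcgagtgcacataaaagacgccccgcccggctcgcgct
Id3: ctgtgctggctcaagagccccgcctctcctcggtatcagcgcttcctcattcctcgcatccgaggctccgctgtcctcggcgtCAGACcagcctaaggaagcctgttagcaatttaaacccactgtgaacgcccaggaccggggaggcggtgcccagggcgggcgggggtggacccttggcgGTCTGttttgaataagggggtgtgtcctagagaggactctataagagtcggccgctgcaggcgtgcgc
Id4: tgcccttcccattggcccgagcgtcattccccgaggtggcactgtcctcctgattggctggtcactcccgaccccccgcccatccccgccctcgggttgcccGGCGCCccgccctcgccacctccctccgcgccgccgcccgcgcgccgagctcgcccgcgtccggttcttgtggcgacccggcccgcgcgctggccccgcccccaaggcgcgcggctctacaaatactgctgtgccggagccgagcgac
Both strands of windows running from 250 bases before to 50 bases after the start were searched for 4 motifs. GGCGCC stood once in the windows of Id2, Id4 and Smad9 and in 2 of the 3 windows of Smad5. Those 2 windows overlap and hold the same site. The share over all 32851 promoters was 11.9%. G and C made up 60% to 73.7% of the windows of the 7 genes, against a median of 52.67% over all promoters. As GGCGCC is all G and C, its share depends on this, and no share is given for promoters of like composition. CAGAC stood 2 times in the window of Id3 and once in 1 window of Smad5, against 49.6% of promoters. GTCTAGAC, a palindromic Smad-binding element whose letters hold CAGAC on neither strand, stood in the Smad6 window at bases 247 to 254, across the start, against 0.213% of promoters. GGCGCC followed after 5 bases by GTCT stood in none of the windows, against 0.0731% of promoters. The Smad1 window held none of these letters.

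Per kilobase of exon Id1 and Id3 were the highest of the 10 genes, at medians of 72.9 and 55.4 estimated reads per exon kilobase and 1000000 reads outside mitochondrial genes over the 22 libraries. Id2 followed at 20.9, then Smad4 at 13.9 and Smad5 at 11.3. Smad7, Smad1, Smad6 and Id4 lay close together, at 4.47, 4.12, 3.73 and 3.71. Smad9 was lowest at 0.579, with 32 to 235 estimated reads in a library. Whether intron reads were counted is not given, and any that were would raise the Smad genes, with spans of 28.4 to 69.0 kb, more than the Id genes on this scale. The deposited TPM appears to divide by the whole gene span with introns, so levels of different genes are not compared on it, except to choose which list genes are named.

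Differences were tested with limma across all genes that had at least 0.1 TPM in at least 4 libraries, and a gene is called where its Benjamini-Hochberg adjusted p is under 0.05. Of the 10 genes, 9 passed this filter. Smad9 did not, with 1 library at that level. In the 22 libraries 1 of the 9 was called in 1 of the 5 comparisons: Id2 rose in Kl/Kl females. With all 24 libraries none was called. At an unadjusted p under 0.05 there were 3 in Bmp2+/+ males (Id1, Id2 and Id3), 1 among females (Id2) and 1 among ∆UCS males (Id2) for Kl/Kl against control, and 0 for ∆UCS against Bmp2+/+ whether Kl/Kl or control. Over all genes tested the share at that p was 11.7% in Bmp2+/+ males, 16.7% among females and 14.2% among ∆UCS males, so 1 gene of 9 was no larger a share than that of all genes. The counts were 3, 1 and 0 in the same order with all 24 libraries, where 7.23%, 11.2% and 13.4% of all genes were at that p. Voom gave the same counts, for which no share of all genes is given here. Limma voom on estimated reads called 0 of the 10 in each comparison. The share of all genes that it called for Kl/Kl against control in the 22 libraries is not given here either.

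**Figure D1:**
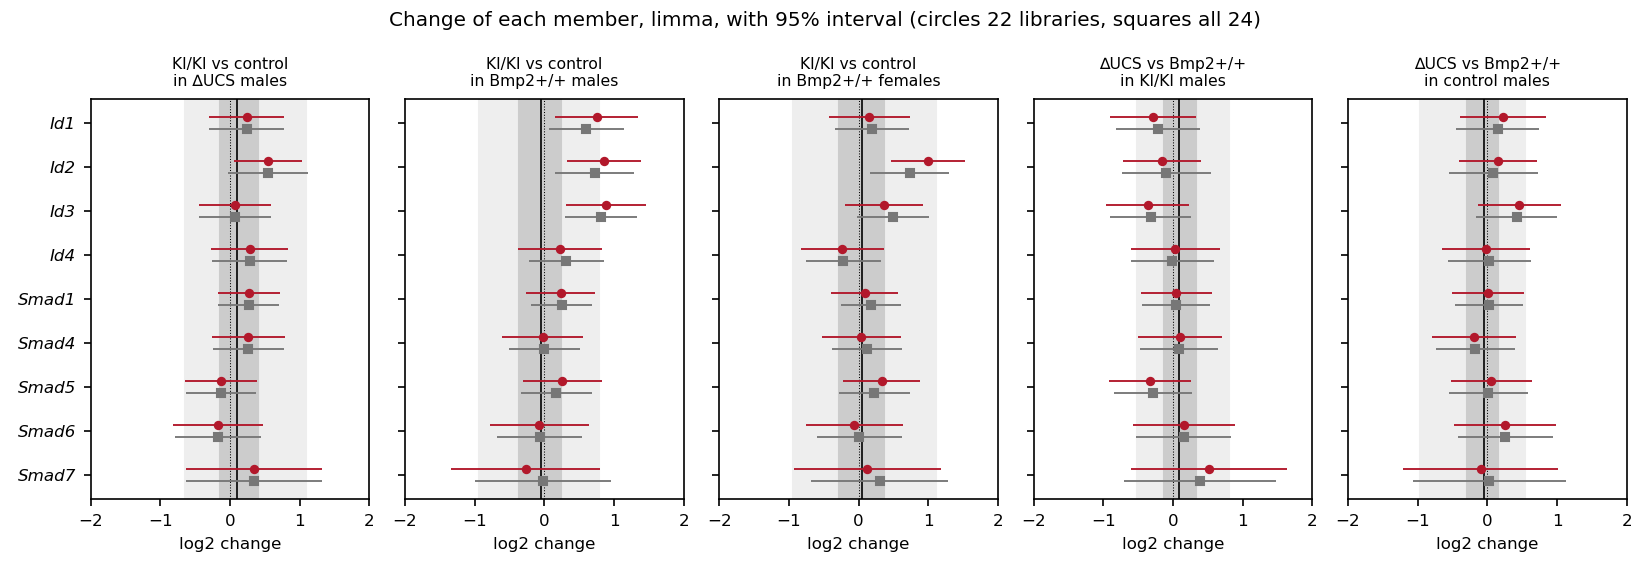
Log2 change (x axis) of the 9 genes that passed the filter on low values, in 5 comparisons, with bars for the 95% interval; circles are the fit of 22 libraries and squares that of all 24. Dark and light bands hold the middle 50% and 90% of all genes tested and the black line is their median. By the circles, Id1, Id2 and Id3 lie to the right in Bmp2+/+ males and Id2 in females and ∆UCS males. Of these, Id2 and Id3 in Bmp2+/+ males lie outside the light band. Id1 there, and Id2 in females and ∆UCS males, lie inside it. Every Smad interval holds 0.

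The first comparison asks how the Id genes of Bmp2+/+ males differ in renal failure. Id1, Id2 and Id3 were each higher in every Kl/Kl male than in every control male, by 1.68 to 1.85 times in the limma fit, and none passed the threshold after adjustment over all genes. Id4 overlapped between the groups.

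Id1 (ENSMUSG00000042745, mm39 chromosome 2, 152578171 to 152579331, plus strand) encodes the Id protein best known as a BMP target in endothelial cells. It was at 62.2, 91.5 and 105.0 scaled TPM in Kl/Kl males, against 43.2, 50.2, 55.9 and 59.0 in control males. The lowest Kl/Kl male lay just above the highest control. Its log2 change was 0.75 (SE 0.28), with an unadjusted p of 0.0160 and a limma adjusted p of 0.281. In the library labelled Bmp2+/+ Kl/Kl male replicate 1 it was 63.6.

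Id2 (ENSMUSG00000020644, mm39 chromosome 12, 25143798 to 25147140, minus strand) encodes an Id protein that also acts in lymphoid and myeloid development. It was at 19.7, 17.1 and 21.6 scaled TPM in Kl/Kl males, against 10.5, 9.26, 10.8 and 13.0 in control males. The groups were well apart, with each group close together. The log2 change was 0.86 (SE 0.25), with an unadjusted p of 0.00351 and a limma adjusted p of 0.144. The library labelled Bmp2+/+ Kl/Kl male replicate 1 lay between the groups, at 14.1.

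Id3 (ENSMUSG00000007872, mm39 chromosome 4, 135870808 to 135873067, plus strand) encodes a partner of Id1 in vascular development. It was at 47.7, 52.4 and 50.7 scaled TPM in Kl/Kl males, against 31.0, 29.8, 21.7 and 28.2 in control males. This was the tightest of the Kl/Kl groups, 50.3 ± 2.36 against 27.7 ± 4.17 in controls (SD, n = 3 and 4). The log2 change was 0.89 (SE 0.27), with an unadjusted p of 0.00429 and a limma adjusted p of 0.158. In the library labelled Bmp2+/+ Kl/Kl male replicate 1 it was 42.6, also above every Bmp2+/+ control male.

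Id4 (ENSMUSG00000021379, mm39 chromosome 13, 48414704 to 48419503, plus strand) encodes the family member best known in neural progenitors. It was at 4.74, 2.10 and 1.70 scaled TPM in Kl/Kl males, against 2.65, 1.88, 1.55 and 2.61 in control males. A single Kl/Kl male was high and the other two lay among the controls. Its log2 change of 0.22 (SE 0.29) was within this spread, and it was -0.16 without that male, replicate 2.

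An exact permutation test on each gene gave p = 0.0286 for Id1, for Id2 and for Id3, the smallest that 3 against 4 allows. This was unadjusted, and 50 such tests were run over 10 genes and 5 comparisons. With all 24 libraries the groups again did not overlap for the same 3 genes (exact permutation p = 0.0286 each), and the log2 changes were 0.60, 0.72 and 0.81. Groups that do not overlap made up 9.39% of the 21214 genes tested in the 22 libraries and 2.44% in all 24, against 3 of the 10 genes here. Limma called 238 genes, 1.12% of those tested, in this comparison with 22 libraries, and 0 (0%) with 24, where 1544 had an unadjusted p under 0.05 and voom called 0. The median log2 change was 0.80 over the 4 Id genes and -0.05 over all genes tested. Libraries fell in 2 sets by their names. In set 1 alone, with 2 libraries of each group, the log2 changes were 0.62 for Id1, 0.78 for Id2 and 0.95 for Id3, with limma adjusted p from 0.721 to 0.907. Set 2 kept 1 Kl/Kl male and 2 controls, with the Kl/Kl male highest for all 3 genes: Id1 at 105.0 against 50.2 and 59.0 scaled TPM, Id2 at 21.6 against 9.26 and 13.0, and Id3 at 50.7 against 29.8 and 28.2.

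**Figure D2:**
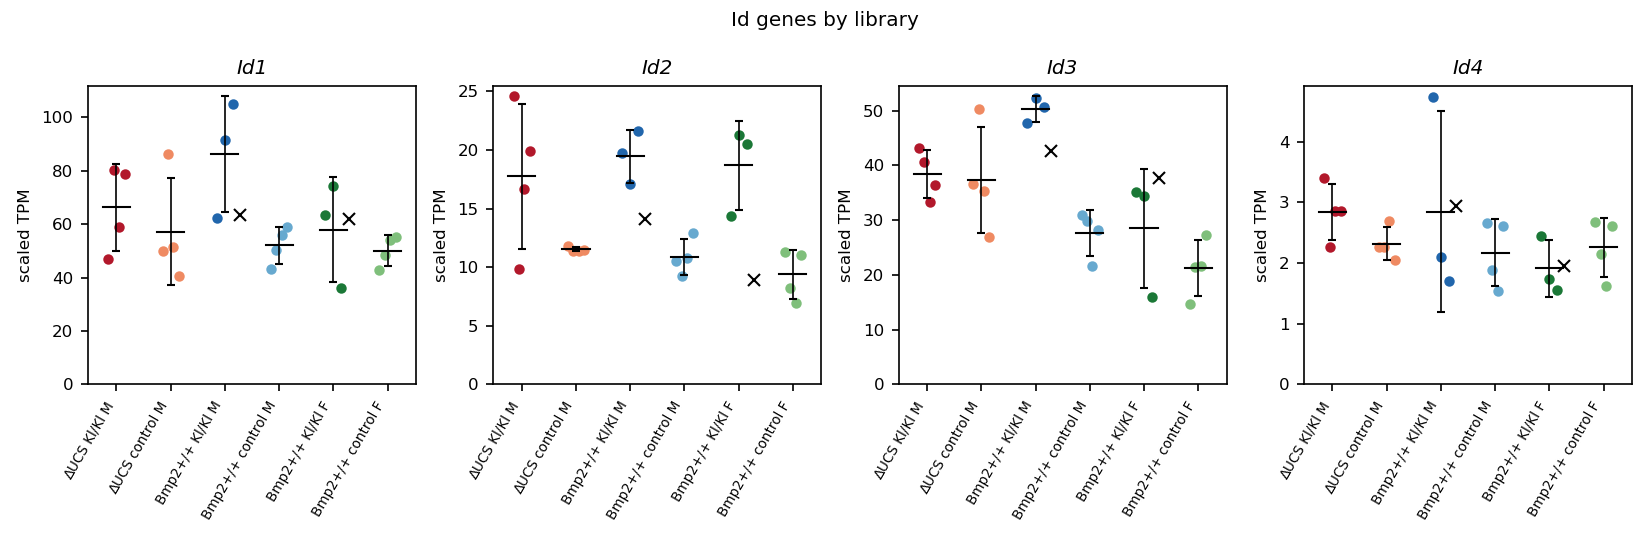
Level of each Id gene in every library (y axis, scaled TPM, starting at 0) by group (x axis, M male, F female), with the mean and SD of the libraries kept; crosses are the 2 libraries against their labelled sex and do not enter the mean. In Bmp2+/+ males every Kl/Kl point of Id1, Id2 and Id3 lies above every control point, and Id2 does so in females as well.

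The same question in females gave the single call. Id2 rose in Kl/Kl females, at 14.3, 21.2 and 20.5 scaled TPM, against 11.3, 8.26, 6.98 and 11.05 in control females. Every Kl/Kl female was above every control. The mean was 18.7 ± 3.797 in Kl/Kl and 9.39 ± 2.11 in control females (SD, n = 3 and 4), a log2 change of 0.99 (SE 0.25, limma adjusted p = 0.0427). Over the other settings run for this comparison the adjusted p lay between 0.0207 and 0.455, and Id2 was called in 8 of 20. The library labelled Kl/Kl female replicate 2 had 8.86, inside the control range. With it, the log2 change was 0.73 and the limma adjusted p 0.340. The call was also lost when either Kl/Kl replicate 3 or 4, or control replicate 2, 3 or 4, was left out, with limma adjusted p of 0.201, 0.121, 0.136, 0.146 and 0.0575 in that order.

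Id1 and Id3 did not separate the female groups. Id1 was at 63.3, 74.3 and 36.1 scaled TPM in Kl/Kl females, against 42.8, 48.4, 54.1 and 55.2 in control females. Id3 was at 35.1, 34.4 and 16.0 in Kl/Kl females, against 14.7, 21.5, 21.7 and 27.3 in control females. In both genes 2 Kl/Kl females were above all controls, while Kl/Kl female replicate 4 was the lowest of 7 for Id1 and second lowest for Id3. That animal had the second highest Id2 of the female groups. The log2 changes were 0.15 (SE 0.28) for Id1 and 0.37 (SE 0.27) for Id3, with limma adjusted p of 0.833 and 0.519. Id4 was at 2.45, 1.73 and 1.56 in Kl/Kl females, against 2.68, 2.15, 1.62 and 2.60 in control females, a log2 change of -0.23 (SE 0.29).

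Groups that do not overlap made up 17.5% of all genes tested in females, against 2 of the 10 genes, Id2 and Smad5. With all 24 libraries they made up 5.51%, against 0 of the 10. Limma called 542 genes in females, 2.55% of those tested, and 0 (0%) with 24 libraries, where 2389 had an unadjusted p under 0.05 and voom called 0. The difference between the change in females and the change in males was not called for any of the 9 genes, nor for any of all genes tested (0%), by limma or by voom, with 637 genes (3%) at an unadjusted limma p under 0.05. It was 0.14 for Id2 (95% interval -0.62 to 0.89), -0.60 for Id1 (-1.43 to 0.23) and -0.52 for Id3 (-1.32 to 0.28). Each interval held 0.

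In ∆UCS males no Id gene passed the threshold between Kl/Kl and control animals. Id2 was at 24.6, 9.86, 16.7 and 19.9 scaled TPM in Kl/Kl ∆UCS males, against 11.8, 11.4, 11.4 and 11.5 in control ∆UCS males. The controls were nearly equal, and 3 of 4 Kl/Kl males were above them all while 1 was below them all. The log2 change was 0.54 (SE 0.23), with an unadjusted p of 0.0315 and a limma adjusted p of 0.288.

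Id1 was at 46.8, 80.4, 58.8 and 78.9 scaled TPM in Kl/Kl ∆UCS males, against 50.1, 86.3, 51.3 and 40.7 in control ∆UCS males. Id3 was at 43.2, 40.6, 33.3 and 36.4 in Kl/Kl ∆UCS males, against 36.6, 50.3, 35.3 and 27.0 in control ∆UCS males. Both genes overlapped throughout, and control replicate 2 was the highest of the 8 for each. The log2 changes were 0.24 (SE 0.26) for Id1 and 0.07 (SE 0.25) for Id3. Id4, at 3.40, 2.27, 2.87 and 2.85 in Kl/Kl ∆UCS males against 2.26, 2.27, 2.69 and 2.04 in control ∆UCS males, had a log2 change of 0.28 (SE 0.26). For Id4 3 of the 4 Kl/Kl ∆UCS males were above every control, with an exact permutation p of 0.0571.

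Groups that do not overlap made up 9.56% of all genes tested in ∆UCS males, against 0 of the 10 genes. Limma called 204 genes, 0.962% of those tested, and 3 (0.0141%) with 24 libraries. The median log2 change of the 4 Id genes was 0.26, both here and in females, against 0.11 here and 0.05 in females over all genes.

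The effect of the ∆UCS allele was read from ∆UCS against Bmp2+/+ males, separately in Kl/Kl and in control animals. No gene of the table was called in either comparison (0% in Kl/Kl males and 0% in control males, in 22 and in 24 libraries), with 584 and 903 of 21214 genes at an unadjusted limma p under 0.05. Limma voom also called 0 of 22306 genes in each. Id3 gave the largest differences among the Id genes, and in opposite directions.

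In Kl/Kl males, Id3 was at 33.3 to 43.2 scaled TPM with ∆UCS, against 47.7 to 52.4 with Bmp2+/+, with no overlap between these groups. Its log2 change was -0.36 (SE 0.28, limma adjusted p = 0.992), and an exact permutation test gave p = 0.0571. Groups that do not overlap made up 1.98% of genes tested, against 1 of the 10 genes. With the library labelled Bmp2+/+ Kl/Kl male replicate 1, at 42.6, the groups overlapped, as did those of all 10 genes, against 0.646% of genes that did not. They also overlapped for Id3 with the deposited scaling. Id1 and Id2 had log2 changes of -0.29 (SE 0.29) and -0.16 (SE 0.27), with overlap.

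In control males, Id3 was at 27.0 to 50.3 scaled TPM with ∆UCS, against 21.7 to 31.0 with Bmp2+/+. The log2 change was 0.46 (SE 0.28), with an unadjusted p of 0.122, a limma adjusted p of 0.999 and an exact permutation p of 0.114. The log2 change was 0.22 (SE 0.29) for Id1, 0.15 (SE 0.27) for Id2 and -0.02 (SE 0.30) for Id4. The groups overlapped for each of the 10 genes, against 3.75% of genes that did not overlap. Smooth muscle markers summed to 341.8 to 477.3 scaled TPM in ∆UCS control males, against 99.4 to 255.9 in Bmp2+/+ control males, with no overlap and 0 of 8 called. In Kl/Kl males these sums overlapped, at 130.1 to 660.5 with ∆UCS against 140.9 to 499.9 with Bmp2+/+. Their part in the ∆UCS values was not tested.

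Whether the Kl/Kl difference itself depended on the Bmp2 genotype was tested as an interaction. Id3 had the lowest value of the 9 genes, -0.82 (95% interval -1.59 to -0.05, SE 0.37), with an unadjusted p of 0.0390 and a limma adjusted p of 0.781. It stayed negative in all 29 settings, between -0.96 and -0.62. Id1 was at -0.51 (-1.31 to 0.29) and Id2 at -0.31 (-1.04 to 0.41). No gene of the table was called for this interaction (0%), by limma or by voom, with 1271 (5.99%) at an unadjusted limma p under 0.05. The Bmp2+/+ male libraries enter both sides of these comparisons, so their values are not independent of each other.

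**Figure D3:**
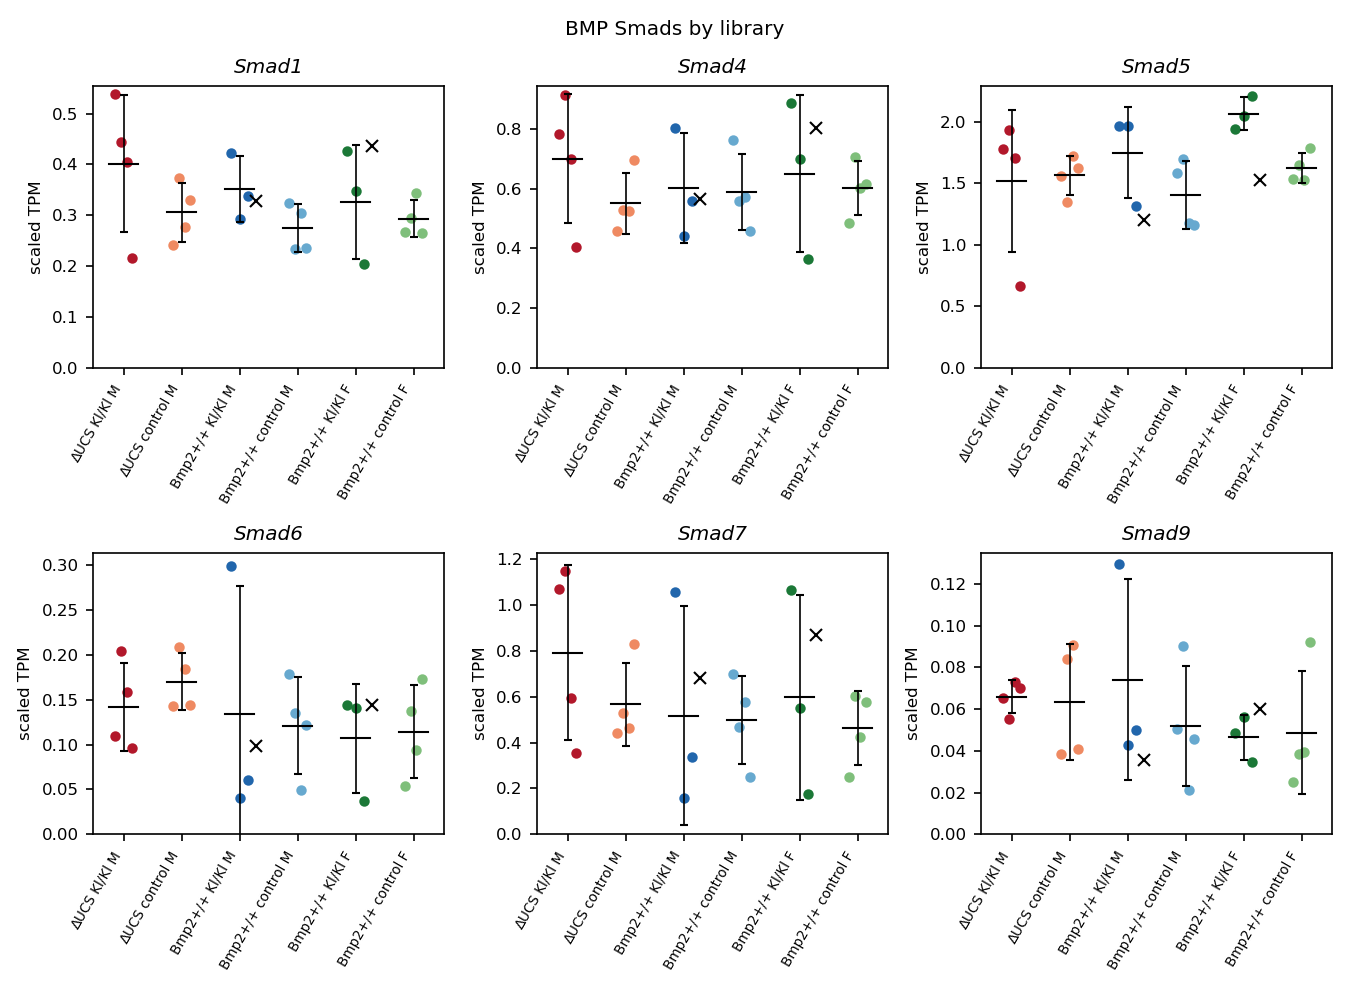
Level of each BMP Smad in every library (y axis, scaled TPM, starting at 0) by group (x axis, M male, F female), with the mean and SD of the libraries kept; crosses are the 2 libraries against their labelled sex and do not enter the mean. The lowest SD bar of Smad6 is cut at 0; Kl/Kl and control points overlap except for Smad5 in females, and 1 Kl/Kl ∆UCS male stands low for Smad5 at 0.665.

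The receptor-regulated Smads passed the threshold in no comparison by limma, with 22 or 24 libraries or with voom. Smad1 (ENSMUSG00000031681, mm39 chromosome 8, 80065024 to 80126148, minus strand) was at 0.423, 0.294 and 0.338 scaled TPM in Bmp2+/+ Kl/Kl males, against 0.325, 0.234, 0.304 and 0.235 in their controls. It was at 0.426, 0.349 and 0.204 in Kl/Kl females, against 0.267, 0.295, 0.344 and 0.266 in control females. In ∆UCS males it was at 0.538, 0.445, 0.405 and 0.217 in Kl/Kl, against 0.241, 0.374, 0.277 and 0.330 in controls. In each stratum most Kl/Kl animals were above the control median and some lay among or below the controls. The log2 changes were 0.23, 0.08 and 0.27 (SE 0.21 to 0.23) in that order.

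Smad5 (ENSMUSG00000021540, mm39 chromosome 13, 56850823 to 56890191, plus strand) was the highest receptor-regulated Smad per exon kilobase. It was at 1.95, 2.05 and 2.22 scaled TPM in Kl/Kl females, against 1.54, 1.65, 1.53 and 1.79 in control females. Every Kl/Kl female was above every control, by a log2 change of 0.33 (SE 0.26). The limma adjusted p was 0.562 and the exact permutation p 0.0286, unadjusted and the smallest possible. The library labelled Kl/Kl female replicate 2, at 1.53, lay just below the lowest control, and with it the exact permutation p was 0.143.

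In Bmp2+/+ males Smad5 was at 1.96, 1.97 and 1.32 scaled TPM in Kl/Kl, against 1.59, 1.70, 1.18 and 1.16 in controls. In ∆UCS males it was at 1.78, 1.93, 1.70 and 0.665 in Kl/Kl, against 1.56, 1.35, 1.72 and 1.63 in controls. Kl/Kl ∆UCS replicate 4 was far below the rest. The log2 change was -0.13 (SE 0.24) in ∆UCS males, and 0.20 without that animal.

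Smad9 (ENSMUSG00000027796, mm39 chromosome 3, 54663003 to 54708679, plus strand) was the receptor-regulated Smad with the least RNA per exon kilobase. It was at 0.0211 to 0.129 scaled TPM over the 22 libraries, and the groups overlapped in all 5 comparisons. Without a filter on low values its log2 changes lay between -0.01 and 0.19 in the 5 comparisons, with limma adjusted p of 0.792 or more. The pseudocount of 0.1 is above the median level of Smad9, 0.05001, and shrinks these values. Limma voom, which adds no such pseudocount, gave log2 changes between -0.02 and 0.56, with an SE of 0.41 to 0.50. The largest was for Kl/Kl against control in Bmp2+/+ males (SE 0.48, limma voom adjusted p = 0.636), followed by 0.47 for ∆UCS against Bmp2+/+ in control males.

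Smad4 (ENSMUSG00000024515, mm39 chromosome 18, 73772080 to 73836852, minus strand) is the partner shared with the TGF-beta pathway. It was at 0.803, 0.442 and 0.560 scaled TPM in Bmp2+/+ Kl/Kl males, against 0.762, 0.560, 0.572 and 0.460 in their controls. It was at 0.887, 0.698 and 0.365 in Kl/Kl females, against 0.486, 0.704, 0.602 and 0.616 in control females. In ∆UCS males it was at 0.783, 0.912, 0.700 and 0.403 in Kl/Kl, against 0.457, 0.529, 0.524 and 0.695 in controls. Kl/Kl groups held both the highest and the lowest animals in each stratum. The log2 changes were -0.03, 0.04 and 0.26 (SE 0.25 to 0.27).

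Smad6 (ENSMUSG00000036867, mm39 chromosome 9, 63860358 to 63929342, minus strand), the inhibitory Smad most selective for BMP receptors, was at 0.298, 0.0410 and 0.0611 scaled TPM in Bmp2+/+ Kl/Kl males, against 0.179, 0.135, 0.0493 and 0.122 in their controls. In Kl/Kl females it was at 0.144, 0.141 and 0.0372, against 0.0536, 0.137, 0.0935 and 0.173 in control females. In ∆UCS males it was at 0.109, 0.204, 0.158 and 0.0967 in Kl/Kl, against 0.143, 0.209, 0.184 and 0.145 in controls. All 3 strata overlapped, and the log2 changes were -0.07, -0.06 and -0.17 (SE 0.31 to 0.34).

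Smad7 (ENSMUSG00000025880, mm39 chromosome 18, 75500600 to 75529007, plus strand), which inhibits both BMP and TGF-beta receptors, had the largest SE of the 9 genes. It was at 1.06, 0.157 and 0.337 scaled TPM in Bmp2+/+ Kl/Kl males, against 0.699, 0.467, 0.577 and 0.248 in their controls. Kl/Kl females were at 1.07, 0.549 and 0.174, against 0.252, 0.602, 0.425 and 0.575 in control females. Kl/Kl ∆UCS males were at 1.07, 1.15, 0.594 and 0.355, against 0.442, 0.531, 0.463 and 0.828 in control ∆UCS males. In each stratum the highest animal was Kl/Kl, and the lowest was Kl/Kl as well. The log2 changes were -0.27 (95% interval -1.34 to 0.80), 0.12 (-0.94 to 1.18) and 0.34 (-0.64 to 1.32). Leaving out Bmp2+/+ Kl/Kl male replicate 3, at 0.157, turned the first to 0.32, and leaving out replicate 2 of that group, at 1.06, gave -0.77.

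Between ∆UCS and Bmp2+/+ males the 5 Smads tested differed by -0.33 to 0.51 in Kl/Kl animals and by -0.19 to 0.25 in controls, on the log2 scale, with none called. The highest was Smad7 in Kl/Kl males, at 0.51 (95% interval -0.60 to 1.63), which was -0.26 without Bmp2+/+ Kl/Kl male replicate 3 and 1.18 without replicate 2 of that group. Smad6 in the same comparison was at 0.15, and was -0.25 without replicate 3 and 0.75 without replicate 2. Over the 5 Smads the median log2 change for Kl/Kl against control was -0.03 (Bmp2+/+ males), 0.08 (females) and 0.26 (∆UCS males), against -0.05, 0.05 and 0.11 over all genes.

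Of 40 other genes of the pathway in 6 lists (further BMP targets, TGF-beta Smads, Smad regulators, E proteins, BMP receptors and ligands), 32 passed the filter and limma called 0 in each of the 5 comparisons, as did voom with 37 tested. At an unadjusted limma p under 0.05 there were 6 in females, 1 in Bmp2+/+ males and 0 in ∆UCS males for Kl/Kl against control, and 0 in Kl/Kl and 2 in control males for ∆UCS against Bmp2+/+. Against the 16.7%, 11.7% and 14.2% of all genes at that p in the 3 Klotho comparisons, 6 of 32 was close to the share of all genes in females, and 1 and 0 were below it in males. For ∆UCS the shares of all genes were 2.75% in Kl/Kl and 4.26% in control males. In females the genes were Bambi, Hamp, Ppm1a, Tob1, Bmp10 and Bmp6, in Bmp2+/+ males Bambi, and for ∆UCS in control males Sost and Bmpr1a. For the interaction of Klotho and Bmp2 genotype there were 2 of 32, Bambi and Smad3, against 5.99% of all genes. The 2 genes with the highest level per gene length, introns apparently included, are given for each list, a choice that favours genes of short span.

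Bmp10, a ligand made mainly by the atrial heart muscle, had a median of 24.9 scaled TPM in Kl/Kl females (0.00653 to 51.4), against 0.156 (0.0129 to 0.458) in control females. It was high in 2 of 3 Kl/Kl females and at the control level in the third, and its log2 change of 4.46 (SE 1.59) had a limma adjusted p of 0.154. Bmp4, the other ligand named, had a log2 change of 0.04 (SE 0.27) in females and 0.38 (SE 0.27) in Bmp2+/+ males. The receptors Acvrl1 and Eng, which serve endothelial cells, had log2 changes of -0.34 and -0.41 in Kl/Kl females and of -0.35 and -0.68 in Kl/Kl Bmp2+/+ males, with none called. In Kl/Kl ∆UCS males they were at -0.14 and -0.09.

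Among other targets Sost, the gene of the secreted inhibitor sclerostin, had a median of 23.6 scaled TPM in ∆UCS control males (15.4 to 30.6), against 7.87 in Bmp2+/+ control males (1.51 to 16.3). The groups overlapped between 15.4 and 16.3, and the log2 change of 2.20 (SE 0.87) had a limma adjusted p of 0.999. The smooth muscle markers given above for these groups were apart in the same direction. Hamp, the hepcidin gene, whose reads may be shared with the similar Hamp2, had a log2 change of 1.51 (SE 0.63) in Kl/Kl females, with a limma adjusted p of 0.231. The Smad regulators Tob1 and Stub1 had log2 changes of -0.81 (SE 0.28) and -0.51 (SE 0.33) in Kl/Kl females, against -0.08 and -0.51 in Kl/Kl Bmp2+/+ males and -0.31 and 0.24 in Kl/Kl ∆UCS males. The TGF-beta Smad gene Smad2 had log2 changes of 0.18, 0.19 and -0.08 in Kl/Kl Bmp2+/+ males, females and ∆UCS males. In the same order Smad3 was at -0.44, -0.10 and 0.42. The interaction for Smad3, its Kl/Kl change in ∆UCS males minus that in Bmp2+/+ males, was 0.86 (SE 0.37). It had an unadjusted limma p of 0.0313 and a limma adjusted p of 0.781. The E-protein gene Tcf3 was at -0.86, -0.02 and 0.35, and Tcf4 at 0.29, 0.18 and -0.01, with none called.

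Some markers of cell types differed between Kl/Kl and control animals in the 22 libraries. Of 12 macrophage markers, limma called 7 higher with Kl/Kl among Bmp2+/+ males, 10 among females and 4 among ∆UCS males, against 1.12%, 2.55% and 0.962% of all genes called in these comparisons. None of the 12 was called in any of them with all 24 libraries (0 of 12 each), against 0%, 0% and 0.0141% of all genes. Their summed level was 509.0 to 541.3 scaled TPM in Kl/Kl against 46.2 to 199.5 in control Bmp2+/+ males, 518.6 to 717.7 against 59.8 to 95.03 in females, and 295.6 to 346.0 against 52.4 to 116.2 in ∆UCS males. In the library labelled Bmp2+/+ Kl/Kl male replicate 1 it was 132.5, with Id1 at 63.6, Id2 at 14.1 and Id3 at 42.6, each above every Bmp2+/+ control of either sex. In the library labelled Kl/Kl female replicate 2 it was 65.9. There Id1, at 62.1, and Id3, at 37.8, were above every Bmp2+/+ control of either sex. Id2, at 8.86, was inside the range of control females and below every Bmp2+/+ control male. The highest ∆UCS control male was at 86.3 for Id1 and 50.3 for Id3, above either library. For Id2 it was at 11.8. Sex-linked RNA in both libraries went against the label, so their labels are in doubt. A relation between these markers and the Id genes was not tested.

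Neutrophil markers summed to 12.8 to 70.4 scaled TPM in Kl/Kl against 3.95 to 12.7 in control Bmp2+/+ males, 22.3 to 46.9 against 2.83 to 20.5 in females, and 9.12 to 32.4 against 1.15 to 8.40 in ∆UCS males. These sums overlapped in no stratum of the 22 libraries, and 0 of the 5 tested were called in each. In the libraries labelled Bmp2+/+ Kl/Kl male replicate 1 and female replicate 2 they were 5.89 and 1.61. In females fibroblast markers were apart as well, at 105.2 to 113.0 in Kl/Kl against 64.0 to 84.0 in controls. Adipocyte markers were lower in every Kl/Kl female, at 912.1 to 1828 against 1994 to 2130 in control females, and Schwann cell markers also, at 5.16 to 8.36 against 11.8 to 12.5. None of the fibroblast, adipocyte and Schwann markers was called in females. In ∆UCS males Schwann markers summed to 4.44 to 8.09 in Kl/Kl against 11.9 to 14.03 in controls. Of the 5, 1 was called lower, S100b, which fat cells also make and which is named here after its values were seen.

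Airway epithelium markers summed to 2330 to 2618 scaled TPM in Kl/Kl females, against 352.9 to 1492 in control females, with 2 of 6 called. In Kl/Kl ∆UCS males they summed to 763.1 to 2497, against 8.93 to 854.0 in controls, again with 2 of 6 called. In either, 0 of 6 were called with all 24 libraries. In Bmp2+/+ males they overlapped widely, at 446.0 to 1955 in Kl/Kl against 499.9 to 1833 in controls. Cardiomyocyte markers summed to 278.6 to 3409 in Kl/Kl females, against 240.7 to 408.6 in control females, with 0 of 6 called. Endothelial markers, of the cells best known for Id1 and Id3, overlapped in all strata and gave 0 of 10 calls. They summed to 42.8 to 52.0 in Kl/Kl against 36.7 to 50.6 in control Bmp2+/+ males. The spread was wider in females, at 14.1 to 46.4 against 21.1 to 50.9, and in ∆UCS males, at 28.8 to 69.8 against 43.4 to 81.4. The part of each of these cell types in the Id values was not tested.

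Within groups, animals with more Id1 tended to have more Id3, and animals with more Smad6 had more Smad7, but none of the 10 pairs of genes examined passed adjustment. On log2 values centred on group means over the 22 libraries, Pearson's r was 0.62 for Id1 and Id3 (Spearman's rho 0.52, permutation p = 0.0171 and 0.0366, adjusted over the 10 pairs 0.0570 and 0.122). It was 0.43 in library set 1 and 0.85 in set 2, and 0.41 without the 2 animals farthest from the median of Id1. For Smad6 and Smad7 r was 0.71 (rho 0.68, permutation p = 0.01001 and 0.00661, adjusted 0.0501 and 0.0661), with 0.67 and 0.78 in the library sets and 0.57 without the 2 farthest animals. For Id3 and Smad6 r was 0.54 (rho 0.56, permutation p = 0.00562 and 0.0144, adjusted 0.0501 and 0.0722). This was 0.26 in set 1, 0.90 in set 2 and 0.38 without the 2 farthest animals. For Id2 r was -0.26 with Id1 and -0.16 with Id3 (permutation p = 0.319 and 0.523), and 0.05 and 0.31 with deposited scaling. With Id4 it was 0.29.

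**Figure D4:**
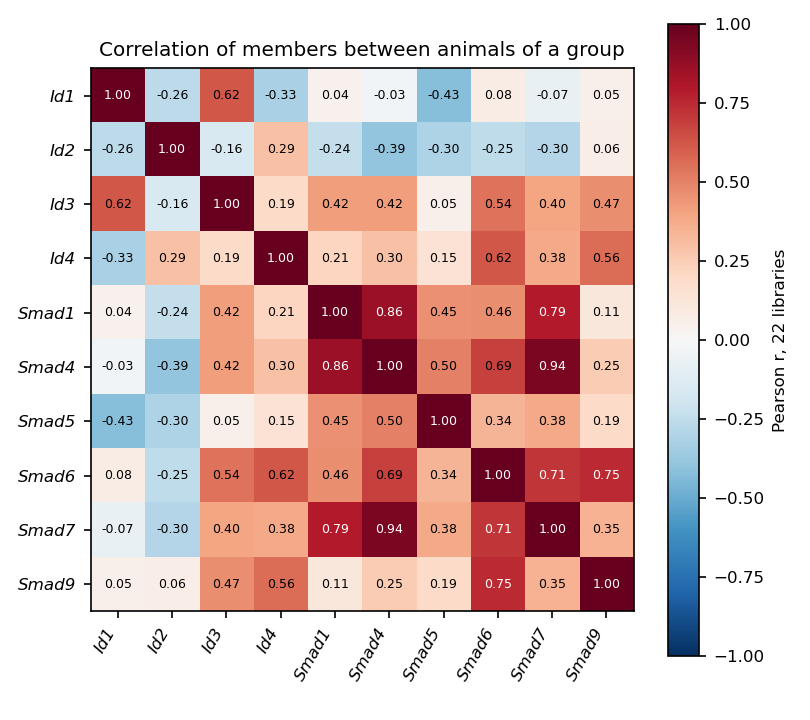
Pearson r between each pair of the 10 genes over the 22 libraries, on log2 levels centred on the mean of each group, with genes on both axes in the same order and the colour scale from -1 to 1. Smad4 and Smad7 form the strongest pair at 0.94, Id1 and Id3 reach 0.62, and Id2 is near or below 0 with the other genes except Id4.

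The pattern of Smad4, Smad7 and Smad1 had close neighbours in the table, given as a description, since the points share the depth and composition of their libraries. Smad4 and Smad7 had r = 0.94, and Smad1 had 0.86 with Smad4 and 0.79 with Smad7. The genes most like Smad7 were Vps9d1, Rfng and Dpp9, at r of 0.986, 0.981 and 0.979 over 22 libraries. Those most like Smad4 were Lrrc47, Mark3 and Cmip, at 0.970 to 0.969. For Smad1 they were Chic2, Jade2 and Brd2 (0.944 to 0.923), for Smad5 Sppl2a, Zfp871 and Tpr (0.951 to 0.948) and for Smad6 Numbl, Phldb1 and Spry2 (0.936 to 0.921).

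The Id genes had no neighbour as close. The genes most like Id1 were Rnd1, Inka1 and Apold1, at r of 0.818, 0.804 and 0.786. For Id2 they were Dcps, H2aw and Zfp560 (0.827 to 0.820), and for Id3 Hexim1, Pck2 and Mad2l2 (0.788 to 0.783). Id4 was most like Camp, Rab17 and Slc16a8 (0.806 to 0.774). Smad9 was most like Fads1, Shroom1 and Ttl (0.808 to 0.803).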

How the data were processed

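Values are TPM as deposited by the authors; the submitters' processing notes name Partek and mm39. Which aligner, annotation and strand setting they chose is not stated in the sources used here, so overlapping and antisense genes and near-identical copies are uncertain. The 1 deposited TPM column that was summed came to 482073. TPM appears to be per whole gene span, and reads were estimated from its smallest steps. Of 256630 values between 0.5 and 20 reads, 73.0% were whole within 0.05, too few to treat as counts, so limma on log2 values was the main test. No columns were unused (0) and 0 of 276 pairs of libraries were identical.

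TPM was scaled by median of ratios over 4381 genes with at least 1 TPM in all libraries, with 34 mitochondrial genes left out. Genes with at least 0.1 TPM in at least 4 libraries were fitted on log2(scaled TPM + 0.1), which understates changes of low genes, with limma 3.58.1 in R 4.3.3 (eBayes with a trend). Terms were the 6 groups and the library set, which was read from the spelling of library names. It used 22 libraries. Tests are two-sided, and p-values were adjusted by Benjamini-Hochberg over all genes, with a threshold of 0.05. Exact permutation tests used the same log2 values, and correlations 100000 permutations within groups (scipy 1.17.1). All ∆UCS libraries were in set 1 and all female libraries in set 2. Reads per exon kilobase used exon lengths of GENCODE M21, and whether intron reads were counted is not given. The labels name separate mice.

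Members, lists, tests and the 2 libraries left out were chosen with earlier results of these data known. All 10 members were named, with list genes that were called or else the 2 per list highest per length, and the 3 genes most correlated with each member. List genes at an unadjusted p under 0.05 were named as well, after their values were seen. The fit was tested on simulated data. Alternatives were all 24 libraries, deposited scaling, other pseudocounts and filters, library set and age, a replicate block, fewer groups, leaving out each library, and limma voom on estimated reads, run with 24 libraries by a choice made after seeing the data.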

Additional observations from a re-analysis of the deposited data

Results flagged for a closer look

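Smad5 stood apart in 1 library. In Kl/Kl ∆UCS males, replicate 4 was at 0.665 scaled TPM, against 1.70 to 1.93 in the other 3 animals of the group, a gap that made up more of the group's range than Dixon's test allows at the 95% level. Of 40 groups of 4 libraries examined over the 10 genes, 1 was picked out in this way, and chance picks out about 1 in 20 groups. The same library was the lowest of its group for Smad1, Smad4, Smad6 and Smad7, at 0.217, 0.403, 0.0967 and 0.355 scaled TPM. It was not low for the Id genes, with Id1 at 78.9 and Id2 at 19.9. Without it the log2 change of Smad5 in Kl/Kl ∆UCS males was 0.20, against -0.13 with it.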

How the results depend on the processing

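Of the 10 genes, the count called was 0 in 4 comparisons and both interactions under every setting run. In females it was 1 (Id2) and fell to 0 with all 24 libraries (also with deposited scaling), with a replicate block, with age as a covariate, with the compared groups alone, and with voom on 22 or 24 libraries. Leaving out 1 library gave 0 to 1. The Id2 log2 change there was 0.73, 1.11, 0.91, 0.98, 0.99, 0.91 and 0.64 in the same order, with the replicate block at a limma adjusted p of 0.0716. The cause was not tested. Replicate numbers did not pair the animals: 4 of 17 same-numbered pairs correlated above 0.1 (r from -0.41 to 0.31), and the block changed no other call of the 10 genes. Pairing by other labels was not tested. Each Kl/Kl female kept had a control female of equal age with an adjacent library number, and the tests did not use this. With all 24 libraries the correlations passed adjustment for Id1 and Id3 (0.631), Id3 and Smad6 (0.553) and Smad6 and Smad7 (0.700). With deposited scaling they did at 0.737, 0.731 and 0.815, with Smad1 and Smad5 at 0.777 and Smad4 and Smad5 at 0.807. That scaling moved the median log2 change of all genes to 0.40 in females, 0.34 in ∆UCS males and 0.10 in Bmp2+/+ males for Kl/Kl, and to -0.21 for ∆UCS in control males. The exact permutation p of Id3 in Bmp2+/+ males was then 0.0571. Library set 1 holds no females, so set 1 alone gave no value for them. Smad9 had the least depth, 32 to 235 reads a library. Over all genes, calls for Kl/Kl against control lay between 0 and 378 in Bmp2+/+ males (238 as reported), 0 and 959 in females (542) and 0 and 490 in ∆UCS males (204), lowest with 24 libraries. With the compared groups alone they were 28, 265 and 93. For ∆UCS against Bmp2+/+ they lay between 0 and 5 in control males and 0 and 1 in Kl/Kl males.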
